A study of Mus musculus with 6 samples.

Results

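The genes described here cover the making, sensing and removal of prostaglandin E2: Pla2g4a, Ptgs1, Ptgs2, Ptges, Ptges2, Ptges3, Ptger2, Ptger4, Hpgd and Slco2a1. They were chosen by gene symbol, and all 10 were found among the 53465 genes of the table. Messenger RNA was compared between SM positive cells, which have a high signal for senescence-associated β-galactosidase, and SM negative cells, which have a low signal, with 3 libraries each. Both fractions were sorted with C12FDG, a substrate that fluoresces once β-galactosidase has cleaved it, from the same axitinib-resistant population of 4T1, a mouse mammary carcinoma line. That population came from lesions that grew back after surgery in mice given 100 mg/kg/day of axitinib, an inhibitor of VEGF receptor kinases. It was then kept in culture with 0.5 µM axitinib for more than 2 months, so both fractions carry the resistance and the drug, and no untreated or parental cells are part of the comparison.

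Prostaglandin synthesis starts when cytosolic phospholipase A2 frees arachidonic acid from membrane lipids. A cyclooxygenase turns it into the unstable intermediate prostaglandin H2, and terminal synthases convert that into the individual prostanoids. Prostaglandin E2 acts on cells through EP receptors, of which EP2 and EP4 raise cyclic AMP, and it is removed by uptake through a transporter and oxidation inside the cell. Cyclooxygenase-2 is often abundant in mammary tumours and is a recognised part of the secretory phenotype of senescent cells.

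The libraries held 18733801 to 26533528 counts. Levels are given in CPM, counts relative to the TMM-scaled library size, and as mean ± SD over n = 3 libraries. Fold changes set SM positive over SM negative cells and were tested over 14038 genes with edgeR's quasi-likelihood F test and Benjamini-Hochberg adjustment at a threshold of 0.05. A further fit added the replicate number as a block, which compares the fractions within each number and is called the blocked fit. Carcinoma markers were plentiful apart from Krt19: Epcam, Krt8, Krt18, Krt19, Cdh1 and Cldn4 summed to 2980 to 3167 CPM in SM positive libraries and 3103 to 3322 CPM in SM negative libraries. Krt19 was low, at 0.917 ± 0.0401 CPM in SM positive cells, against 1.71 ± 0.445 CPM in SM negative cells.

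Ptgs2, the gene of cyclooxygenase-2, was 1.52-fold higher in SM positive cells, and the genes of phospholipase A2α, cyclooxygenase-1 and the EP4 receptor were higher once libraries were compared within replicate numbers. Slco2a1, the uptake transporter, did not pass in either fit. Without the block, Ptgs2 was the 1 of 8 tested members that rose, where 1.14% of all tested genes rose. In the blocked fit Pla2g4a, Ptgs1, Ptgs2 and Ptger4 rose, which is 4 of 8 members, where 8.52% of all tested genes rose. The blocked calls of Ptgs1 and Ptger4 ended under some of the alternatives, as given for each gene below. For 6 of the members, Pla2g4a, Ptgs1, Ptgs2, Ptges, Ptger4 and Slco2a1, every SM positive library lay above every SM negative library, as was the case for 10.4% of all tested genes. In either direction, 19.9% of all tested genes had libraries that did not overlap between the fractions. Ptges2 and Ptges3 were detected with fractions that overlapped, and Ptger2 and Hpgd had 0 counts in all 6 libraries. The members had been proposed with results for Ptgs2 known, so these counts describe the pathway and do not test it as a set. In bulk libraries, fewer cells of a type and less RNA per cell cannot be told apart.

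**Figure D1:**
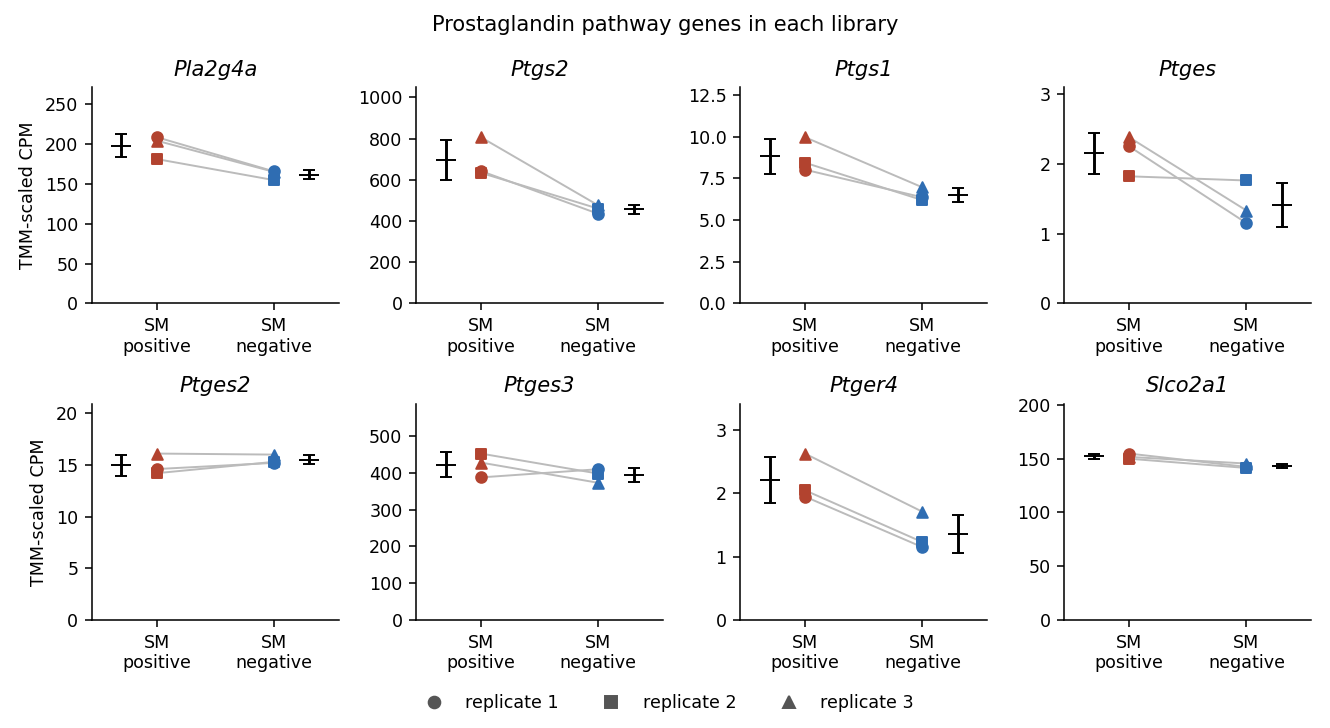
TMM-scaled CPM of the 8 members with counts, in SM positive (left, red) and SM negative (right, blue) libraries. Lines join libraries with the same replicate number and the black marks show mean ± SD (n = 3). Ptgs2 was at 634.5 CPM or more in every SM positive library and at 476.2 CPM or less in every SM negative library.

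Pla2g4a encodes cytosolic phospholipase A2α, the enzyme that releases arachidonic acid (ENSMUSG00000056220.14, GRCm38 chromosome 1, 149829618 to 149961290, minus strand). It stood at 208.9, 181.4 and 204.5 CPM in SM positive replicates 1, 2 and 3, against 165.8, 154.9 and 165.2 CPM in SM negative replicates 1, 2 and 3. The fractions did not overlap, and replicate 2 was the lowest library of each. The fold change was 1.22 (log2 change 0.29 ± 0.0647 SE), which missed the threshold (adjusted p = 0.0611). The blocked fit called it higher (log2 change 0.29 ± 0.0405 SE, adjusted p = 4.87e-05). Without a block, DESeq2 (adjusted p = 0.00847) and a fit with no filter (adjusted p = 0.000596) called it. Relative log expression size factors, library totals, more than 1 CPM, limma-voom and no robust estimation did not (adjusted p = 0.0621, 0.0679, 0.0654, 0.0798 and 0.0768). With single libraries left out the adjusted p was 0.0381 to 0.204, and it passed only without SM positive replicate 2. The differences within replicates 1, 2 and 3 were 0.33, 0.23 and 0.31 on the log2 scale, all in the same direction.

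Ptgs2 encodes cyclooxygenase-2, the inducible enzyme of the committed step (ENSMUSG00000032487.8, chromosome 1, 150100031 to 150108227, plus strand). Its level was 643.3, 634.5 and 807.4 CPM in SM positive replicates 1, 2 and 3, against 435.2, 460.2 and 476.2 CPM in SM negative replicates 1, 2 and 3. SM positive replicate 3 stood above the other libraries, and the fractions did not overlap. The rise was 1.52-fold (log2 change 0.60 ± 0.0895 SE, adjusted p = 0.0148). Within replicates 1, 2 and 3 the log2 difference was 0.56, 0.46 and 0.76, and with SM positive replicate 3 left out the log2 change was 0.48 (adjusted p = 0.0154). Leaving out SM negative replicate 1, 2 or 3 ended the call (adjusted p = 0.0733, 0.0848 and 0.0541) with little change in its size (log2 change 0.57, 0.61 and 0.63). In the blocked fit the call held with any of the replicate numbers left out (adjusted p of 0.000198 or less).

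Ptgs1 encodes cyclooxygenase-1, the form that most tissues keep at a steady level (ENSMUSG00000047250.13, chromosome 2, 36230426 to 36252272, plus strand). It stood at 8.03, 8.45 and 9.98 CPM in SM positive libraries 1, 2 and 3, against 6.37, 6.20 and 6.97 CPM in SM negative libraries 1, 2 and 3. No overlap was seen between the fractions, and replicate 3 was the highest library of each. The fold change was 1.35 (log2 change 0.43 ± 0.124 SE), which did not pass without the block (adjusted p = 0.153) and passed with it (adjusted p = 0.00855). The blocked call ended without replicate 3 (adjusted p = 0.0919) and when DESeq2 was run with the block (adjusted p = 0.271). Gm43621, annotated on the opposite strand as still to be verified, overlaps exons of Ptgs1 and had between 0 and 2.03 counts per library.

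Per length, the inducible cyclooxygenase was far above the constitutive one. Counts were divided by the exon length of each gene and scaled to the same total in each library, and on that scale Ptgs2 stood at 420.3 ± 62.2 in SM positive and 271 ± 18.2 in SM negative cells. Ptgs1 stood at 6.29 ± 0.778 in SM positive and 4.55 ± 0.329 in SM negative cells. The ratio of Ptgs2 to Ptgs1 per length was 68.0, 63.7 and 68.6 in SM positive libraries 1, 2 and 3, against 58.0, 63.0 and 58.0 in SM negative libraries 1, 2 and 3. Over the 6 libraries Ptgs2 ranked between 318 and 572 of all genes per length.

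The order of the levels per length, from the mean over all libraries, was Ptges3, Ptgs2, Pla2g4a, Slco2a1, Ptges2, Ptgs1, Ptges and Ptger4. Ptges3 and Ptgs2 overlapped in SM positive cells, where the libraries spanned 482 to 563 for Ptges3 and 382 to 492 for Ptgs2, and did not overlap in SM negative cells. The other neighbours in this order did not overlap within a fraction. Slco2a1 had the longest exon total of the group, 13545 bases over 4 annotated transcripts, and which of them the cells use is not measured by gene counts.

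**Figure D2:**
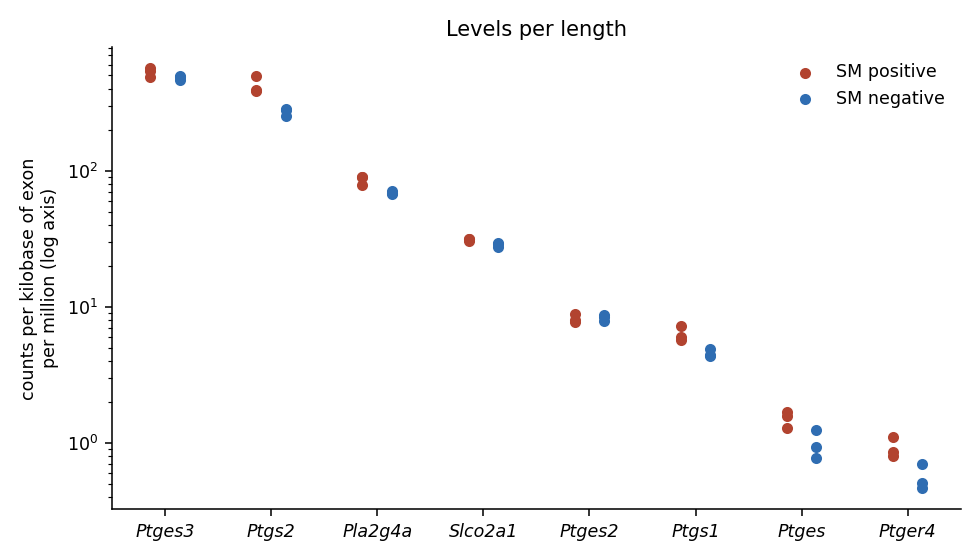
Counts per kilobase of exon, scaled to the library total, on a log axis, for the 8 members with counts, ordered by their mean. Each point is a library, with SM positive in red at the left of each pair and SM negative in blue at the right. Ptges3 and Ptgs2 lie at the top and Ptges and Ptger4 at the bottom, with Ptger4 at 1.11 or less in every library.

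Pla2g4a and Ptgs2 are neighbours on mouse chromosome 1. They lie 138.7 kb apart and point away from each other, and the annotation places 3 genes between them, none of them protein coding. Of these, Ptgs2os, a noncoding gene on the minus strand next to the Ptgs2 start, was detected at 6.35 ± 1.06 CPM in SM positive cells, against 5.46 ± 0.781 CPM in SM negative cells (log2 change 0.23, adjusted p = 0.598). The other genes between them, Gm19136 and Gm44329, had 0 counts in every library.

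The sequence upstream of the start is shown for the members that rose in either fit, which include the neighbouring pair. Each is the 250 bases before the RefSeq transcript start (GRCm38.p6), read 5′ to 3′ on the gene's own strand. They lie at chr1:150099781-150100030 (plus) for Ptgs2, chr1:149961291-149961540 (minus) for Pla2g4a, chr2:36230176-36230425 (plus) for Ptgs1 and chr15:5244188-5244437 (minus) for Ptger4. For Pla2g4a, which has another annotated start, the outer start was used. Capitals mark matches to any of the motifs described after the sequences.
Ptgs2: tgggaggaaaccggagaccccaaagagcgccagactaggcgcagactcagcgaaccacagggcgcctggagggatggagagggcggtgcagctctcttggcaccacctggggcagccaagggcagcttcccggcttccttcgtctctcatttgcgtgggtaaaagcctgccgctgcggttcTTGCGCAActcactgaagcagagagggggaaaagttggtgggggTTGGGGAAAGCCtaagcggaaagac
Pla2g4a: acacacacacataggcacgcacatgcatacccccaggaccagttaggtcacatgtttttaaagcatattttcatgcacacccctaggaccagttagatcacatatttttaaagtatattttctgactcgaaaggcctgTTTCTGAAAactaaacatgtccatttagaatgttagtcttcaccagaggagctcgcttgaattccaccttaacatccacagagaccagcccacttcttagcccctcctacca
Ptgs1: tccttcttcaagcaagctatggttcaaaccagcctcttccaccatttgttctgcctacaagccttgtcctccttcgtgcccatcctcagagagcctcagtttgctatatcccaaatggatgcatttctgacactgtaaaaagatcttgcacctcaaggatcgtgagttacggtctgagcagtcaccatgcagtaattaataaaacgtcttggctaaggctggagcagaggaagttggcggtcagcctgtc
Ptger4: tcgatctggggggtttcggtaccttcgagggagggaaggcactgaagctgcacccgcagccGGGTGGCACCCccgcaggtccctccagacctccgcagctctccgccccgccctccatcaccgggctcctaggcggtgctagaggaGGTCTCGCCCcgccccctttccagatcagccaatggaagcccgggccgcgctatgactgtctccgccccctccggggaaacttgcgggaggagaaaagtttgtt

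Both strands were searched for letters typical of factors known to act on these genes. The Ptgs2 window held the C/EBP pattern TTNCNNAA at positions -69 to -62 as the palindrome TTGCGCAA, with position -1 just before the start. It held that pattern again at -25 to -18, where it overlapped a match to the NF-κB pattern at -23 to -14. The Pla2g4a window held the C/EBP pattern at overlapping positions from -112 to -104, the Ptger4 window held the NF-κB pattern at -189 to -179 on either strand and at -104 to -95, and the Ptgs1 window held none of the patterns. Among 32536 promoter windows of this length in the RefSeq table, 36.8% held the C/EBP and 46.0% the NF-κB pattern. The cyclic AMP response core CGTCA (in 17.9% of windows), the E-box CACGTG (6.04%), the AP-1 pattern TGANTCA (6.73%) and the TATA box TATAAA (12.3%) were not among the letters of these 4 windows. Bases after the annotated start, and those further upstream, were not searched. The promoters of these genes may therefore hold these patterns outside the windows.

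Ptges encodes the microsomal, inducible prostaglandin E synthase that is usually coupled to cyclooxygenase-2 (ENSMUSG00000050737.13, chromosome 2, 30889471 to 30929863, minus strand). It was low, with 60, 39 and 47 counts in SM positive libraries 1, 2 and 3 and 29, 33 and 28 counts in SM negative libraries 1, 2 and 3. These counts correspond to 2.25, 1.82 and 2.38 CPM in SM positive libraries and 1.15, 1.76 and 1.33 CPM in SM negative libraries. The fractions did not overlap, but replicate 2 came close, at a log2 difference of 0.05, while replicates 1 and 3 differed by 0.96 and 0.84. The fold change of 1.54 (log2 change 0.62 ± 0.231 SE) did not pass without the block (adjusted p = 0.268) or with it (adjusted p = 0.0799). With replicate 2 left out, the pair with the smallest difference, the blocked fit called it higher (log2 change 0.90, adjusted p = 0.0336). It did not with replicate 1 or 3 left out (log2 change 0.44 and 0.52, adjusted p = 0.457 and 0.344). DESeq2 and limma-voom with the block did not call it either (adjusted p = 0.602 and 0.113).

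The other E synthases showed small differences that did not pass in either fit. Ptges2, a membrane-associated synthase found at the Golgi (chromosome 2, 32395896 to 32405772, plus strand), stood at 14.6, 14.2 and 16.1 CPM in SM positive libraries, against 15.2, 15.3 and 16.0 CPM in SM negative libraries, and the fractions overlapped. Its log2 change was -0.05 ± 0.0877 SE (adjusted p = 0.856). Ptges3, the cytosolic synthase that is also the HSP90 co-chaperone p23 (chromosome 10, 128058954 to 128077272, plus strand), stood at 387.8, 452.7 and 428.2 CPM in SM positive libraries, against 410.1, 398.2 and 373.1 CPM in SM negative libraries. It overlapped too, with replicate 1 lower and replicates 2 and 3 higher in SM positive cells (log2 change 0.10 ± 0.0663 SE, adjusted p = 0.557). Ptges3 is uncertain as a level, because 20.3% of its 31-base stretches also occur in the pseudogene Ptges3-ps, which was assigned 79.1 ± 5.34 CPM in SM positive cells, against 81.6 ± 8.99 CPM in SM negative cells.

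**Figure D3:**
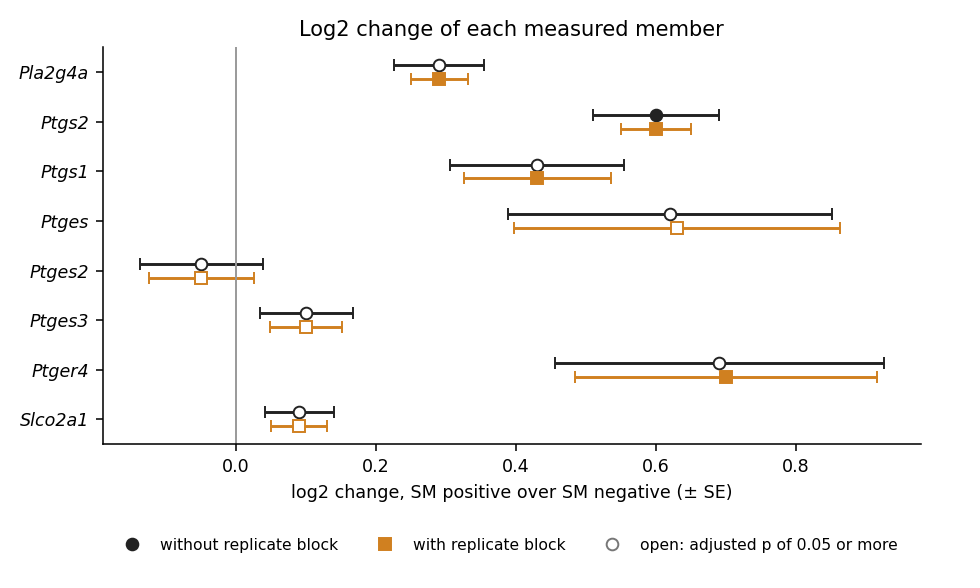
Log2 change of each measured member, SM positive over SM negative, with its standard error. Black circles are the fit without the replicate block and orange squares the fit with it, and filled symbols passed an adjusted p of 0.05. Ptgs2 is filled in both fits, and Pla2g4a, Ptgs1 and Ptger4 are filled with the block.

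Of the receptors among the members, Ptger4 was detected and Ptger2 was not. Ptger4 encodes EP4 (ENSMUSG00000039942.15, chromosome 15, 5206661 to 5244187, minus strand). It had 52.03, 44.05 and 52.02 counts in SM positive libraries 1, 2 and 3, against 29.44, 23.02 and 36.01 counts in SM negative libraries 1, 2 and 3. As CPM these were 1.95, 2.05 and 2.63 in SM positive and 1.15, 1.23 and 1.71 in SM negative libraries, with no overlap and replicate 3 the highest of each fraction. The fold change was 1.62, the greatest among the members (log2 change 0.69 ± 0.235 SE), and did not pass without the block (adjusted p = 0.228).

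The blocked fit called Ptger4 higher (adjusted p = 0.0338), and the differences within replicates 1, 2 and 3 were close together at 0.76, 0.74 and 0.63 on the log2 scale. That call ended with each replicate number left out in turn (adjusted p = 0.183, 0.0961 and 0.138), with DESeq2 and the block (adjusted p = 0.469) and with limma-voom and the block (adjusted p = 0.0503). The gene Ttc33 overlaps Ptger4 exons on the opposite strand and was more abundant, at 20.9 ± 1.59 CPM in SM positive cells, against 19.5 ± 0.115 CPM in SM negative cells (adjusted p = 0.674). Ttc33 shares 0.828% of the 31-base stretches of Ptger4. The pseudogene Gm15937 shares 14.4% of them and had between 0 and 1.58 counts per library. Strand use in the counting was not given in the sources used here, and without strand the reads of Ptger4 and Ttc33 cannot be told apart where their exons overlap.

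Ptger2, which encodes EP2 (chromosome 14, 44988195 to 45003820, plus strand), had 0 counts in all 6 libraries. A count of 0 allows a level of up to 3 counts, which is 0.113 to 0.152 CPM in SM positive libraries, against 0.119 to 0.160 CPM in SM negative libraries, for counting error only. Among the other prostanoid receptors, which include the E2 receptors EP1 and EP3, and related proteins, 4 of 11 listed genes could be tested. None passed in edgeR without the block (1 had an unadjusted p under 0.05), where 1.35% of all tested genes passed. Ptger1, the calcium-coupled EP1 receptor, stood at 5.63 ± 1.13 CPM in SM positive cells, against 5.73 ± 0.219 CPM in SM negative cells (log2 change -0.03, adjusted p = 0.957). Ptger3, the EP3 receptor, averaged 0 CPM in SM positive cells, against 0.0158 CPM in SM negative cells. Ptgfrn, a membrane protein named as a regulator of the prostaglandin F2α receptor, rose in the blocked fit, in which 14.1% of all tested genes passed. It stood at 429.8 ± 27.8 CPM in SM positive cells, against 376.3 ± 8.29 CPM in SM negative cells (log2 change 0.19, blocked adjusted p = 0.00284). The F2α receptor gene itself, Ptgfr, and the D2 receptor gene Ptgdr had 0 counts in all libraries.

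Of breakdown and uptake, Hpgd was not detected and Slco2a1 differed little between the fractions. Hpgd encodes 15-hydroxyprostaglandin dehydrogenase, which inactivates prostaglandin E2 (chromosome 8, 56294585 to 56321043, plus strand), and it had 0 counts in all 6 libraries under the same limits as Ptger2. Slco2a1 encodes the prostaglandin transporter that brings prostaglandins into the cell (ENSMUSG00000032548.14, chromosome 9, 102988712 to 103096002, plus strand). It stood at 154.8, 150.0 and 151.7 CPM in SM positive libraries 1, 2 and 3, against 142.4, 141.4 and 145.5 CPM in SM negative libraries 1, 2 and 3. The fractions did not overlap, but the difference was small (1.06-fold, log2 change 0.09 ± 0.0495 SE) and passed neither without the block (adjusted p = 0.478) nor with it (adjusted p = 0.156). Abcc4, an efflux pump that exports prostaglandin E2, fell in the blocked fit, at 16.9 ± 1.87 CPM in SM positive cells, against 19.8 ± 2.67 CPM in SM negative cells (blocked log2 change -0.22, blocked adjusted p = 0.0362). It was the 1 called gene among 5 tested genes of prostanoid export, uptake and reduction, or 20% of them, near the 14.1% of all tested genes. Ptgr1 and Ptgr2, reductases of the breakdown route, did not pass in either fit.

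In all, 116 further genes of the pathway and its surroundings were tested, drawn from 9 lists. Without the block, 1 rose and none fell, which is 0.862% of them against 1.35% of all tested genes, and 25 had an unadjusted p under 0.05. The share of all tested genes under that unadjusted threshold was not counted. This number and those given for single lists therefore cannot be read as an excess. In the blocked fit 20 rose and 8 fell, which is 24.1% against 14.1% of all tested genes. Their median log2 change was 0.05, against -0.00085 over all tested genes, and 63.8% had a positive log2 change, against 49.8% of all tested genes. The lists were chosen with earlier results of these data known, so these shares describe the genes and do not test them as sets.

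**Figure D4:**
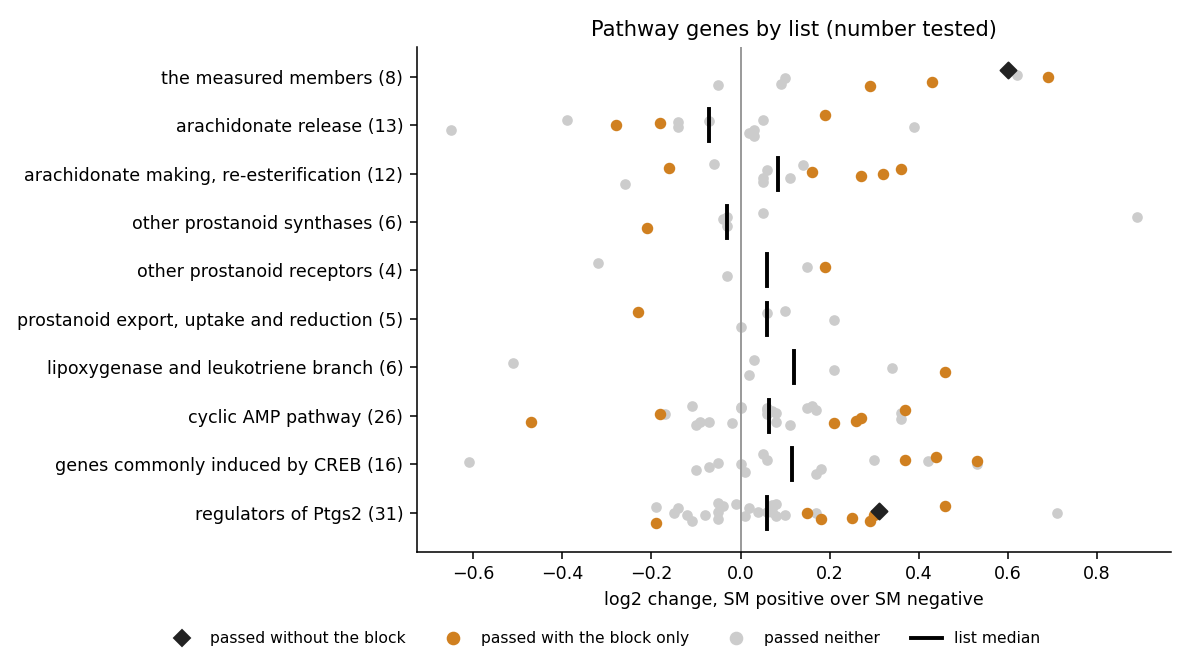
Log2 change of each tested gene, SM positive over SM negative, for the members and for 9 lists of related genes, with the number tested in brackets. Black diamonds passed without the replicate block, orange points passed with the block alone, grey points passed neither, and vertical bars are list medians. The list medians lie between -0.07 and 0.12.

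Arachidonate supply was mixed. Among 13 tested genes of arachidonate release, 1 rose and 2 fell in the blocked fit, or 23.1% of them against 14.1% of all tested genes, and the list median was -0.07. None passed in edgeR without the block, where 3 had an unadjusted p under 0.05. Plaat3, a phospholipase abundant in adipose tissue, rose to 56.0 ± 4.34 CPM in SM positive cells, against 49.0 ± 3.80 CPM in SM negative cells (blocked adjusted p = 0.00776). Pla2g6, the calcium-independent phospholipase A2β, fell to 21.0 ± 1.20 CPM in SM positive cells, against 25.4 ± 1.87 CPM in SM negative cells (blocked adjusted p = 0.00529), and the secreted form Pla2g12a fell as well (log2 change -0.18, blocked adjusted p = 0.0310). Anxa1, a secreted inhibitor of phospholipase A2 activity, stood at 625.7 ± 30.7 CPM in SM positive cells, against 614.3 ± 33.4 CPM in SM negative cells (adjusted p = 0.897).

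Among 12 tested genes that make arachidonate or return it to lipids, 4 rose and 1 fell in the blocked fit, or 41.7% of them against 14.1% of all tested genes, and the list median was 0.09. Without the block none passed in edgeR, and 4 had an unadjusted p under 0.05. Acsl4, an acyl-CoA synthetase that prefers arachidonate, stood at 166.4, 190.4 and 171.4 CPM in SM positive libraries, against 139.2, 156.9 and 127.8 CPM in SM negative libraries. The fractions did not overlap, and replicate 2 was the highest of each (1.25-fold, adjusted p = 0.105 without the block and 3.49e-05 with it). Lpcat3, which places arachidonate into phospholipids, and Lpcat2, which also makes platelet-activating factor, rose in the blocked fit (blocked log2 changes 0.27 and 0.37, blocked adjusted p = 0.00913 and 0.00982), as did Acsl3, another acyl-CoA synthetase (blocked adjusted p = 0.0191). Acsl5, a further acyl-CoA synthetase, fell to 337.9 ± 14.1 CPM in SM positive cells, against 378.3 ± 16.1 CPM in SM negative cells (blocked adjusted p = 0.00744).

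The branches to other eicosanoids were sparse. Of 13 other prostanoid synthase genes 6 could be tested, and Akr1b3, an aldose reductase for which prostaglandin F synthase activity is known, was the 1 called in the blocked fit, where it fell (16.7% of the list against 14.1% of all tested genes). It stood at 84.8 ± 3.45 CPM in SM positive cells, against 98.0 ± 2.57 CPM in SM negative cells (log2 change -0.21, blocked adjusted p = 0.00316). Ptgis, the prostacyclin synthase, stood at 1.10 ± 0.104 CPM in SM positive cells, against 1.07 ± 0.234 CPM in SM negative cells (adjusted p = 0.953). In the lipoxygenase and leukotriene list 6 of 20 genes with a match could be tested. Alox5, which starts leukotriene synthesis, averaged 0.0125 CPM in SM positive cells, against 0.0356 CPM in SM negative cells, under the limit set by 3 counts. Ephx1, an epoxide hydrolase, was the 1 of these called in the blocked fit, where it rose (blocked log2 change 0.47, blocked adjusted p = 0.0404), which is 16.7% of the list and near the share of all tested genes.

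Downstream of EP4, genes of the cyclic AMP pathway differed in both directions. Of 26 tested, none passed in edgeR without the block, where 5 had an unadjusted p under 0.05, and 4 rose and 2 fell with it, or 23.1% of them against 14.1% of all tested genes. Adcy7, an adenylate cyclase, stood at 110.0, 112.2 and 102.1 CPM in SM positive libraries, against 89.9, 92.4 and 87.1 CPM in SM negative libraries. The fractions did not overlap (1.20-fold, adjusted p = 0.0561 without the block and 0.000181 with it). Adcy3, a related cyclase, and Prkacb, a catalytic subunit of protein kinase A, rose in the blocked fit (log2 changes 0.26 and 0.21, blocked adjusted p = 0.00302 and 0.00215). Arrb2, the β-arrestin that uncouples receptors, fell to 8.69 ± 1.11 CPM in SM positive cells, against 12.0 ± 0.686 CPM in SM negative cells (blocked adjusted p = 0.00153). Rapgef3, which encodes the cyclic AMP sensor EPAC1, fell as well (log2 change -0.18, blocked adjusted p = 0.0262).

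Among 16 tested genes that CREB commonly induces, 3 rose in the blocked fit and none fell, or 18.8% of them against 14.1% of all tested genes. None passed in edgeR without the block, where 1 had an unadjusted p under 0.05. Fos, an immediate early gene, ranged widely between replicate numbers, at 34.6, 11.3 and 24.3 CPM in SM positive libraries 1, 2 and 3 and 25.8, 9.19 and 16.4 CPM in SM negative libraries 1, 2 and 3. The fractions overlapped, while within each number the SM positive library was the higher (adjusted p = 0.813 without the block and 0.000223 with it). Btg2, an antiproliferative gene, and Pde4b, a phosphodiesterase that degrades cyclic AMP, showed the same arrangement (both rose, blocked adjusted p = 0.00112 and 0.0225). The nuclear receptor gene Nr4a1 and the growth factor gene Areg, also on this list, did not pass in either fit.

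Of 31 tested regulators of Ptgs2 transcription and messenger stability, Celf2 rose without the block, which is 3.23% of the list against 1.35% of all tested genes. In the blocked fit 7 rose and 1 fell, or 25.8% of the list against 14.1% of all tested genes. Celf2, an RNA-binding protein known to bind the Ptgs2 messenger, stood at 109.3, 114.3 and 122.6 CPM in SM positive libraries 1, 2 and 3, against 88.9, 99.1 and 91.0 CPM in SM negative libraries 1, 2 and 3. The fractions did not overlap (log2 change 0.31 ± 0.0652 SE, adjusted p = 0.0487). Its call ended without SM positive replicate 2 or 3 (adjusted p = 0.117 and 0.173) and without SM negative replicate 1, 2 or 3 (adjusted p = 0.170, 0.0858 and 0.193). It also ended with relative log expression size factors (adjusted p = 0.0517), library totals (adjusted p = 0.0532), a filter of more than 1 CPM (adjusted p = 0.0544), limma-voom (adjusted p = 0.0687) and a fit without robust estimation (adjusted p = 0.0633), and it held with the block (adjusted p = 0.000106).

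Other regulators of Ptgs2 rose in the blocked fit. Jun, an AP-1 subunit, stood at 162.2, 204.8 and 234.6 CPM in SM positive libraries 1, 2 and 3, against 125.0, 168.9 and 196.1 CPM in SM negative libraries 1, 2 and 3. The fractions overlapped, but each SM positive library exceeded the SM negative library of its number (blocked adjusted p = 3.37e-05). Zfp36l1, which promotes decay of AU-rich messengers, stood at 109.9 ± 9.42 CPM in SM positive cells, against 89.7 ± 4.99 CPM in SM negative cells (blocked adjusted p = 8.01e-05). Hif1a, the hypoxia-inducible factor, and Il1r1, the interleukin-1 receptor, rose too (log2 changes 0.18 and 0.46, blocked adjusted p = 0.00620 and 0.00784), as did Tlr4, the receptor for endotoxin, and Nr3c1, the glucocorticoid receptor (blocked adjusted p = 0.0258 and 0.0211). Junb, another AP-1 subunit, fell (log2 change -0.19, blocked adjusted p = 0.0279). The NF-κB subunit genes Nfkb1 and Rela and the C/EBP genes Cebpb and Cebpd did not pass in either fit.

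The genes whose log2 CPM followed Ptgs2 most closely over the 6 libraries were Rnf141, Prkacb, Pnpla8, Arel1 and Foxp1. Their Pearson correlations with Ptgs2 were 0.994, 0.993, 0.989, 0.989 and 0.989, the highest among 9773 named genes with at least 5 CPM. Ptgs2 differed between the fractions, so these values describe that difference as well as the spread within the fractions. Pnpla8, a calcium-independent phospholipase, stood at 62.4 ± 2.79 CPM in SM positive cells, against 54.0 ± 0.308 CPM in SM negative cells (log2 change 0.21, adjusted p = 0.153 without the block and 0.00447 with it). Foxp1, a forkhead transcription factor, stood at 53.3 ± 2.23 CPM in SM positive cells, against 44.5 ± 0.519 CPM in SM negative cells (adjusted p = 0.0723 without the block and 0.000945 with it). Rnf141, the closest, passed neither without the block (adjusted p = 0.38) nor with it (adjusted p = 0.081). Genes picked this way tend to differ between the fractions as Ptgs2 does, so these p-values are no separate evidence.

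Markers of cells that are known for prostaglandin synthesis or breakdown were low. The 8 fibroblast and pericyte markers summed to 6.02 to 8.41 CPM in SM positive libraries, against 4.55 to 5.05 CPM in SM negative libraries, in the same direction as Ptgs2. Most of this was Pdgfra, which rose in the blocked fit (blocked log2 change 0.49, blocked adjusted p = 0.0423), while Lum and Col3a1 had 0 counts in all libraries. Pdgfrb averaged 0.332 CPM in SM positive cells, against 0.0912 CPM in SM negative cells, and Dcn averaged 0.130 CPM in SM positive cells, against 0.0336 CPM in SM negative cells. For both, every SM positive library lay above every SM negative library, at counts too low to be tested. The means of Col1a1, Col1a2 and Acta2 were also higher in SM positive cells, with fractions that overlapped, so 6 of the 8 markers had the higher mean there and the other two were at 0. The 8 macrophage and monocyte markers summed to 12.0 to 14.4 CPM in SM positive libraries, against 15.0 to 16.0 CPM in SM negative libraries, with Adgre1, C1qa and C1qb at 0 counts, and Cd68 fell in the blocked fit (blocked adjusted p = 0.0148). The 5 platelet and megakaryocyte markers summed to 1.54 to 1.88 CPM in SM positive libraries, against 1.60 to 2.27 CPM in SM negative libraries, with Pf4 at 0 counts. Neutrophil, lymphocyte and endothelial markers summed to 0.427 CPM or less in every library. Of the carcinoma markers, Epcam, Krt19 and Cldn4 fell in the blocked fit (blocked adjusted p = 0.0147, 0.0263 and 0.00727). The part of these differences in the Ptgs2 result was not tested.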

How the data were processed

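Polyadenylated RNA of 6 libraries was sequenced, and the authors deposited a table of expected counts, which are estimates and include fractions (13.5% to 14.4% of values per library). Per the submitters' processing notes, FastQC 0.11.5, STAR 2.6.0a, RSEM 1.3.1 and GRCm38 were used. Their roles, the annotation release and any strand setting were not given in the sources used here. Per the labels' protocols, the kit was stranded. For the tests each expected count was rounded. Symbols, coordinates and exon lengths came from GENCODE M21 by Ensembl identifier without version (99.6% matched), and promoters from RefSeq (GRCm38.p6), where all 10 members matched. Genes were filtered with filterByExpr, scaled by TMM and tested with edgeR 4.0.16 (R 4.3.3, robust quasi-likelihood fit). DESeq2 1.42.0, limma-voom (limma 3.58.1), other scalings, filters and thresholds, single libraries left out and the replicate block were alternatives. The procedure was tested on simulated counts that had a shared factor for each replicate number built in. That test cannot show whether the libraries here are paired.

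The labels do not tie a replicate number to a culture or a sort. The p-values therefore describe the spread among the 6 libraries, and that spread may be technical. Deviations from the fraction means correlated at 0.22, 0.28 and 0.196 for libraries that share a number, above the minimum of 0.1 for each pair. The numbers were therefore taken as pairs, on the basis of these same data. The rest correlated at -0.175 to -0.0435. Because each fraction was centred on its own mean, higher values for shared numbers bring lower ones for the rest, which are no separate evidence. Blocked values are given beside results whose call they change.

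The members and gene lists were chosen with earlier results of these data known. All members are named, and from each list up to 4 genes past the threshold without the block and up to 4 more with it, with a mean of at least 1 CPM, by smallest p. The 5 genes most like Ptgs2 were taken by correlation. Other list genes and overlapping genes were named after their values were seen. Of the promoter motifs, the NF-κB pattern was added and the cyclic AMP response core shortened after a first search.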

Additional observations from a re-analysis of the deposited data

How the results depend on the processing

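All 8 tested members kept their direction under every alternative run. Of the 10 members 1 was called, against 2 without a filter or with DESeq2, 4 with the replicate block and 0 at an adjusted p of 0.01. The count was 0 to 2 with single libraries left out (2 without SM positive replicate 2, 0 without any SM negative replicate), and 2 to 4 in the blocked fit with pairs left out. Over all genes 190 were called, against 663 with no filter, 334 with DESeq2, 1982 with the replicate block, 33 at 0.01, 25 to 123 with single libraries left out, and 705, 1793 and 886 in the blocked fit without replicate 1, 2 or 3. Of the list genes 1 was called, against 7 with no filter, 4 with DESeq2, 28 with the replicate block, 0 to 2 with single libraries left out and 11, 24 and 13 in the blocked fit without replicate 1, 2 or 3. It was 0 with relative log expression size factors, library totals, more than 1 CPM in 3 libraries, limma-voom, no robust estimation, or a threshold of 0.01. The Ptgs2 log2 change was 0.48 to 0.67 with single libraries left out (adjusted p = 0.0126 to 0.0848) and 0.51 to 0.66 in the blocked fit with pairs left out. Of alternatives added after the data were seen, all with the replicate block, DESeq2 called 2 members, 12 list genes and 612 genes, limma-voom 3, 24 and 1586, relative log expression 4, 28 and 1975, and library totals 4, 28 and 1961. The causes of these differences were not tested. The members with the fewest counts, Ptges and Ptger4, are the least precise.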
